A study of Rattus norvegicus with 6 samples.

Results

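The genes described here are those named as nuclear-encoded components of the mitochondrial respiratory chain and the ATP synthase, measured in cultured stem cells from rat skeletal muscle. They were chosen by symbol alone: the single annotated symbol of a probe set had to begin with Nduf, Uqcr, Cox4 to Cox8 or Atp5, or be Sdha, Sdhb, Sdhc or Sdhd. This gave 106 probe sets for 100 genes, out of 36685 probe sets and 18166 named genes on the array. By role, 74 of the 100 genes encode subunits, of which 32 belong to complex I, 4 to complex II, 7 to complex III, 18 to complex IV and 13 to complex V. The symbols also took in genes that are not subunits: 8 assembly factors of complex I (Ndufaf1 to Ndufaf8), the ATP synthase inhibitor Atp5if1, and 17 gene copies or pseudogenes. A further 8 probe sets carried a member's symbol beside a second symbol and were left out, among them those of Cox7a2, Ndufa10, Ndufa3, Atp5f1c and Atp5mc2. Of the 13 mitochondrially encoded subunits, 0 were annotated, so only the nuclear share of each complex was measured.

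The cells were isolated from male rats by plating and kept in flasks or 6-well plates. RNA was read on Affymetrix Rat Gene 2.0 ST arrays, with 1 array for each of 6 groups. The groups are a high glucose control, a low glucose control, cells given 100 mg/dl cholesterol with its carrier cyclodextrin, cells given a fatty acid (sodium palmitate, a saturated fatty acid salt, with no dose in the labels), and cells titled LZ serum and OZ serum. LZ and OZ are used as titled, since their meaning, the rats' strain and their age are not in the labels. Nor do the labels pair a control with a treatment or say if a control held cyclodextrin. Because each group is a single array, no value has an error and no test was possible. A difference is therefore one between arrays, in which condition and culture cannot be told apart. How few arrays there are sets the precision.

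Complexes I to IV pass electrons from NADH and succinate to oxygen. Complexes I, III and IV pump protons across the inner mitochondrial membrane as they do so, and complex V, the ATP synthase, lets the protons return and makes ATP. Complex II has all its subunits encoded in the nucleus and also works in the tricarboxylic acid cycle, whereas the other complexes combine nuclear and mitochondrial gene products. Muscle fibres are rich in these complexes, and some complex IV subunits exist in forms that differ between muscle and other tissues.

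Values are log2 signals. Where 6 values are given in a row, they stand in the order high glucose control, low glucose control, cholesterol, fatty acid, LZ serum and OZ serum. A gene with several probe sets is given by the probe set with the highest mean, and a gene counted as measured when its mean log2 signal over the 6 libraries reached 6.74, the median of all values. That held for 86 of the 100 genes and for 70 of the 74 subunits, against 11540 of all 18166 genes. All subunits of complexes I, II, III and V passed, with 14 of 18 in complex IV, 7 of 8 assembly factors, Atp5if1 and 8 of 17 copies. The 4 subunits that did not pass are Cox6b2, Cox7b2, Cox8b and Cox8c, tissue-restricted forms of complex IV subunits, and Ndufaf2 was the assembly factor below the line. The remaining 9 below it are the copies Atp5mgl1, Atp5mgl3, Atp5mgl4, Cox6c-ps1, Cox7cl1, Ndufaf7-ps1, Ndufb11b, Ndufb4l1 and Uqcr11l1.

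The libraries had close median intensities, from 104.6 to 109.2, which alone does not show that they were on 1 scale. Of the 11540 genes, 427 to 472 differed at least 2-fold between the fatty acid library and a control, 216 to 232 between the cholesterol library and a control, and 41 between the controls. Mesenchymal markers were strong: 7 of 7 annotated ones passed the filter, with Vim between 13.72 and 13.79 and Thy1 between 13.17 and 13.51. With fatty acid 5 of the 7 were lower than both controls, Nt5e by 0.86, Pdgfrb by 0.84, Pdgfra by 0.54 and Ly6e by 0.33 among them, and Cd44 was higher by 0.46. With cholesterol 5 of 7 were lower and 1 higher, by at most 0.31. Of all genes, 39.7% were lower than both controls and 40.4% higher with fatty acid. With cholesterol these shares were 33.6% and 36.3%. The summed intensity of the 7 was 30469 in the fatty acid library, 34158 in the cholesterol library and 35771 to 37827 in the others. Of 8 muscle progenitor markers 4 passed the filter: Ncam1 was strong (11.37 to 12.43), Pax7 lay near the line (6.90 to 7.26), and Myf5, Myod1, Myog and Cdh15 were below it. The defining markers of committed myoblasts were thus not measured above the line in cells labelled as muscle-derived. Of 6 macrophage and leukocyte markers, Ptprc, Adgre1, Csf1r and Itgam were below the line, while Cd68 and Cd14 passed. The summed intensity of these 6 markers was 1694 in the cholesterol library, 710 in the fatty acid library and 845 to 1115 in the others. The list went both ways with fatty acid: against both controls Cd14 was 0.60 lower and Cd68 0.40 higher, while cholesterol was higher in both, by 0.51 and 1.56. The summed intensity of the 8 muscle progenitor markers was 3443 in the fatty acid library and 5308 to 6338 in the others. That sum is mostly Ncam1, and of the 4 markers that passed 2 were lower than both controls with fatty acid (Ncam1 by 0.90, Itga7 by 0.44) and 2 higher (Pax7 by 0.22, Des by 0.18). The part of these shifts in the results that follow was not tested. In bulk RNA, fewer cells of a type and less RNA per cell cannot be told apart.

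Respiratory chain subunits varied little between the libraries. The difference between a gene's highest and lowest library had a median of 0.31 on the log2 scale over the 70 subunits, against 0.41 over all 11540 genes. It reached 1, a 2-fold range, in 1 of 70 subunits (1.43%) against 7.49% of all genes, and stayed under 0.25 in 23 of 70 (32.9%) against 17.3%. With a stricter filter, which 63 subunits and 7212 genes in all passed, the median range was 0.30 for the subunits and 0.44 for all genes. Complex II had the smallest median range (0.22), followed by complex I (0.29), complex V (0.34), complex IV (0.36) and complex III (0.39). Some related lists were similar. The median range was 0.33 in 30 assembly factors outside the symbol rule, with 36.7% under 0.25. It was 0.34 in 15 tricarboxylic acid cycle genes (26.7% under 0.25) and 0.40 in 16 regulators of mitochondrial gene expression (31.25%). In 19 electron carriers and feeder enzymes it was 0.45 (10.5%).

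**Figure D1:**
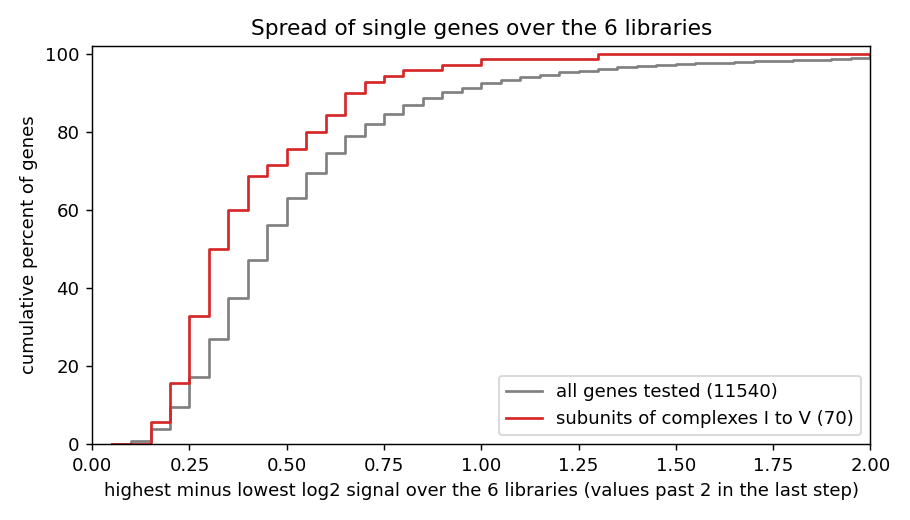
Cumulative percent of genes (vertical axis) by the difference between a gene's highest and lowest log2 signal over the 6 libraries (horizontal axis), for 70 subunits in red and 11540 genes in grey. The red line lies above the grey one except at the lowest ranges, under 0.15. Under a range of 0.25 lie 32.9% of subunits and 17.3% of all genes.

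Within this narrow range the lipid libraries lay on opposite sides. The cholesterol library was the highest of the 6 in 28 of 70 subunits (40%), against 22.6% of all genes, and the fatty acid library was the lowest of the 6 in 36 of 70 (51.4%), against 29% of all genes. The 7 measured assembly factors went the other way, with the fatty acid library highest in 4 of 7, against 30% of all genes, and the cholesterol library lowest in 4 of 7, against 17.5%. Low glucose was highest in 18 of 70 subunits (25.7%), against 17.7% of all genes, and high glucose in 12 (17.1%), against 13.5%. Each control was lowest in 7 (10%). Low glucose was highest more often than cholesterol in complexes II (2 against 0), III (3 against 2) and IV (5 against 4). It was less often highest in I (4 against 14) and V (4 against 8). LZ serum was highest in 2 of 70 subunits (2.86%) and lowest in 7 (10%), against 6.98% and 8.73% of all genes. OZ serum was highest in 7 (10%) and lowest in 8 (11.4%), against 9.22% and 20.0%.

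**Figure D2:**
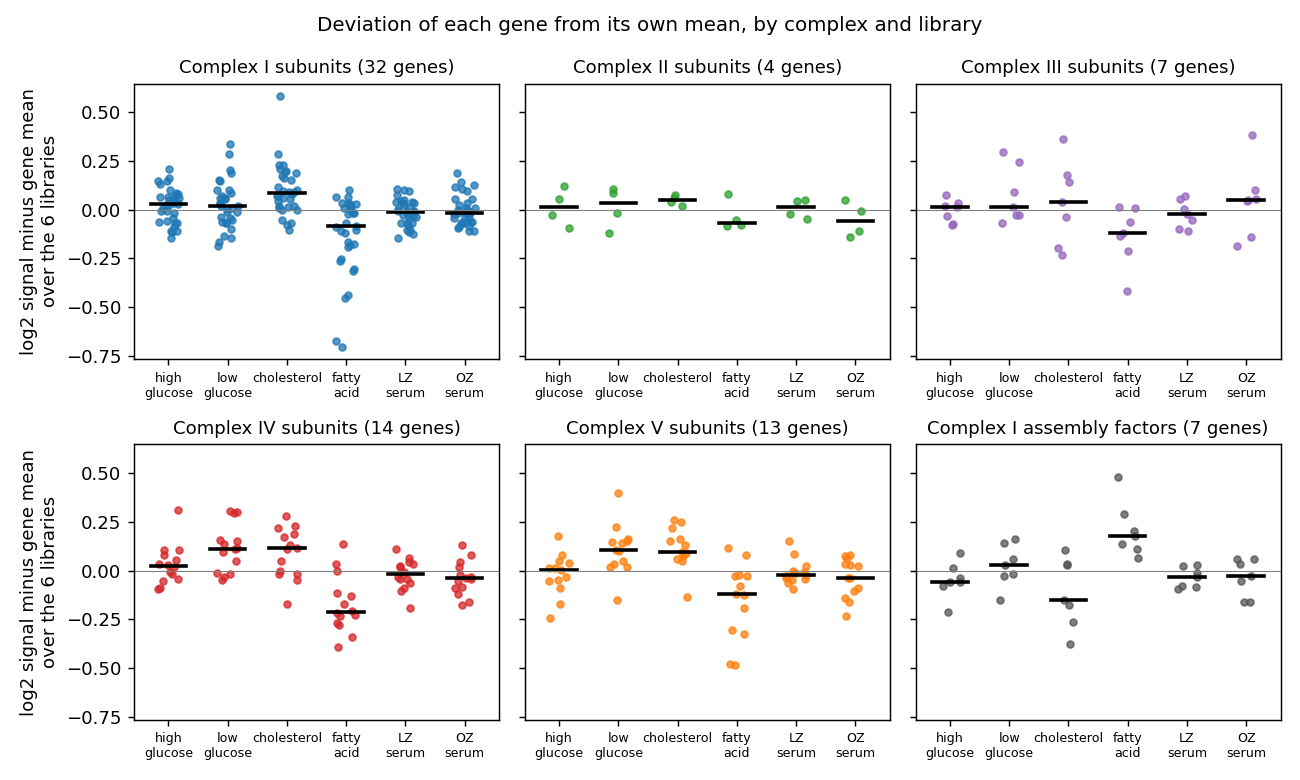
Log2 signal of each measured gene minus its own mean over the 6 libraries (vertical axis) in each library (horizontal axis), with 1 panel per complex and 1 for the complex I assembly factors. Points are genes and black lines are medians. The fatty acid medians lie below 0 in all 5 complexes and above 0 in the assembly factors. The low glucose and cholesterol medians are both 0.11 in complex IV, and 0.11 and 0.10 in V. In I, II and III the cholesterol median is the higher of these.

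Cholesterol and fatty acid were compared directly, library against library. The cholesterol library was higher in 56 of 70 subunits and lower in 14 (80% and 20%), where all genes split into 51.9% higher and 48% lower. The median difference was 0.17 for the 70 subunits and 0.01 for all genes. By complex it was 0.28 in IV (11 of 14 higher), 0.23 in V (11 of 13), 0.16 in I (26 of 32), 0.12 in II (3 of 4) and 0.10 in III (5 of 7). The assembly factors had a median of -0.29, with 1 of 7 higher and 6 lower. Over the alternative scalings and filters the median stayed positive in each of the 5 complexes, from 0.06 to 0.15 in III from 0.15 to 0.28 in IV and from 0.18 to 0.23 in V, and it stayed between -0.32 and -0.21 in the assembly factors.

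At 2-fold only Ndufv3 was counted among the 86 members, against 2.82% of all genes in either direction. At 1.5-fold, 8 of 86 members (9.3%) were higher with cholesterol, 7 of them subunits (10% of 70), against 7.43% of all genes: the subunits Ndufv3, Ndufa2, Uqcr11, Atp5mf, Ndufs8, Ndufa1 and Cox4i2, and the copy Atp5hl1. The only member lower by 1.5-fold was the assembly factor Ndufaf4, against 4.31% of all genes.

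**Figure D3:**
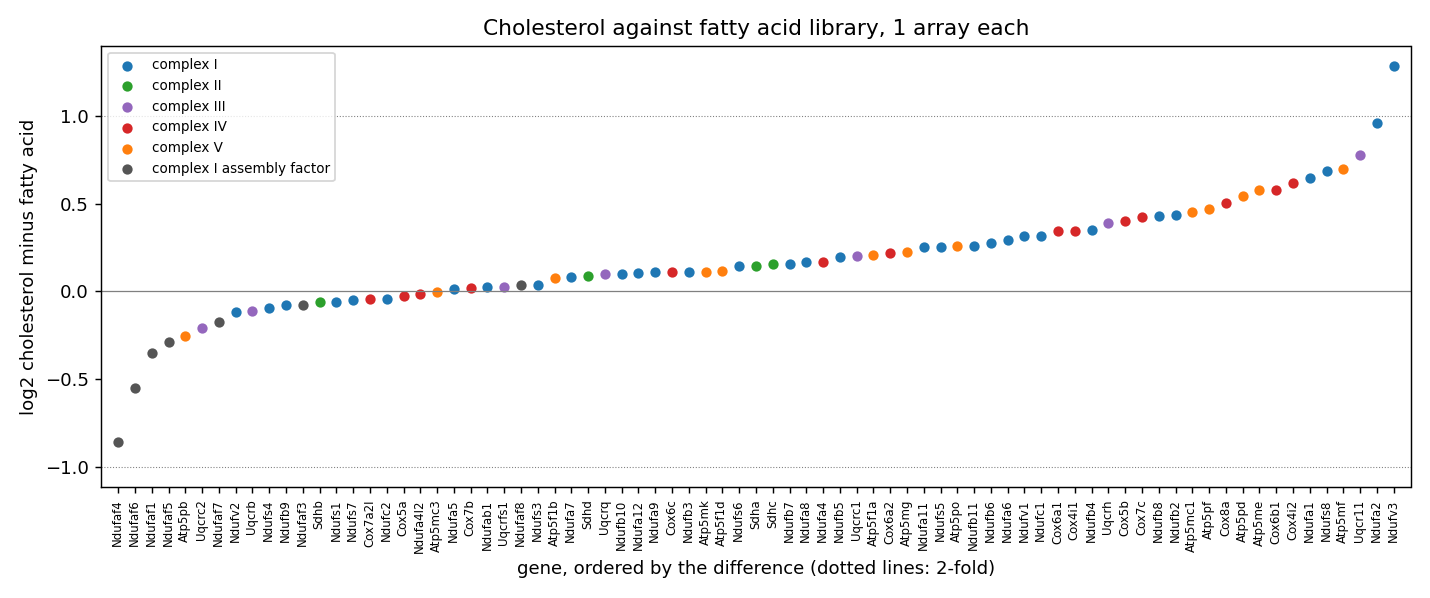
Log2 signal in the cholesterol library minus that in the fatty acid library (vertical axis) for 77 genes ordered by the difference, coloured by complex, with the complex I assembly factors in grey and dotted lines at 2-fold. Most subunits lie above 0, Ndufv3 is past the upper line at 1.29, and Ndufaf4 is the lowest at -0.86.

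The promoter sequences below show what is written upstream of genes that lay on each side of this comparison. Nuclear respiratory genes are known to share sites for NRF-1, for ETS family factors such as NRF-2 (GABP), for YY1 and for estrogen-related receptors. The first 3 sequences belong to subunits that were higher with cholesterol by 0.58 (Atp5me), 0.51 (Cox8a) and 0.47 (Atp5pf), and the last belongs to Ndufaf4, which was lower by 0.86 on the log2 scale. They were picked because they hold matches, after their values were known. Each is the 200 bases before the start in RefSeq, build GRCr8, with capitals where a searched motif matches on either strand.
Atp5me, chr14:1464660-1464859, plus strand: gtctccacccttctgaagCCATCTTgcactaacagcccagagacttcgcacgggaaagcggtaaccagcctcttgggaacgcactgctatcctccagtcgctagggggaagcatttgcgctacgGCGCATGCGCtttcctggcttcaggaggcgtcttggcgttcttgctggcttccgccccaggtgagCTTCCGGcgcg
Cox8a, chr1:213833624-213833823, minus strand: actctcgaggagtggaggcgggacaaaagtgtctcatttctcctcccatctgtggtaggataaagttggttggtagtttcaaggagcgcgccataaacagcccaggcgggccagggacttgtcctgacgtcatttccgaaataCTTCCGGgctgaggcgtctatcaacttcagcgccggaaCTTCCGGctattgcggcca
Atp5pf, chr11:37375102-37375301, minus strand: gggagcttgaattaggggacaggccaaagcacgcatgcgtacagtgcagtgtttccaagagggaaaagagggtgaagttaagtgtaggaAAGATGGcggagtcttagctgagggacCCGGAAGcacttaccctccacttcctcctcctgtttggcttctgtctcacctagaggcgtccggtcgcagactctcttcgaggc
Ndufaf4, chr5:43401595-43401794, plus strand: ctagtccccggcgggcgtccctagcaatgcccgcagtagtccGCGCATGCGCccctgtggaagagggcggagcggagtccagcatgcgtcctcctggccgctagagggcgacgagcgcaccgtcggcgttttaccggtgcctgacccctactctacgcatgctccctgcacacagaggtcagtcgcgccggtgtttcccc

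In Atp5me the capitals mark, from 5′ to 3′, a YY1 match, 2 overlapping NRF-1 matches on opposite strands, and an ETS match 5 to 11 bases before the start. Within the printed bases Cox8a holds 2 ETS matches, Atp5pf a YY1 and an ETS match, and Ndufaf4 2 overlapping NRF-1 matches. The motifs searched, on both strands of windows of 300 bases from 250 before to 50 after the start, were GCGCANGCG for NRF-1, CCGGAAG for ETS, AAGATGG for YY1 and CAAGGTCA for the estrogen-related receptors. A promoter was matched for 66 of the 74 subunits.

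NRF-1 letters were in 16 of 66 subunit windows (24.2%), against 12.8% of 9456 measured genes with a window and 6.26% of all 27457 windows. ETS letters were in 19 (28.8%), against 17.7% and 9.22%. YY1 letters were in 18 (27.3%), against 8.4% and 7.3%, and the receptor letters in 4 (6.06%), against 0.857% and 1.48%. The 66 windows include those of subunits below the signal filter, whereas the 9456 are of measured genes only. The median GC content of the subunit windows was 56%, against 60.7% for the measured genes and 52.3% for all windows. By complex, the NRF-1 letters were in 9 of 30 windows of I, 4 of 12 of V and 1 of 15 of IV. Among 7 assembly factor windows, 2 held NRF-1 letters, 2 ETS letters and 1 YY1 letters. A match is a run of letters and not a shown binding site.

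**Figure D4:**
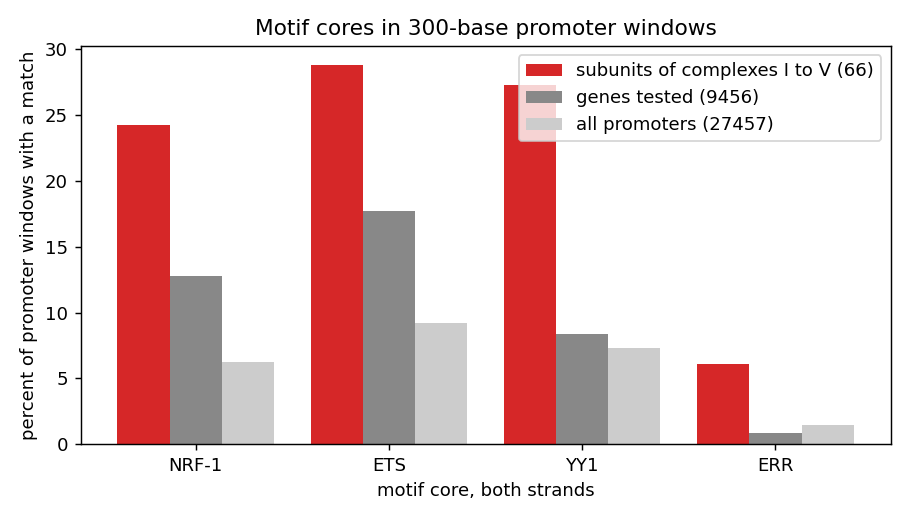
Percent of 300-base promoter windows that hold each motif (vertical axis) for 66 subunits, 9456 measured genes and all 27457 windows; bars start at 0. The subunit bar is the tallest for each of the 4 motifs, at 24.2% for NRF-1 and 27.3% for YY1.

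Subunits with and without these letters had overlapping differences between the lipid libraries. The median of cholesterol minus fatty acid was 0.21 in 16 measured subunits with the NRF-1 letters and 0.16 in 46 without. It was 0.30 in 19 subunits with ETS letters and 0.14 in 43 without, and 0.28 in 18 with YY1 letters and 0.13 in 44 without. For the receptor letters it was 0.17 in 4 with and 0.16 in 58 without. Cholesterol was higher in 14 of 16 subunits with NRF-1 letters and 36 of 46 without. These counts were 16 of 19 and 34 of 43 for ETS, 14 of 18 and 36 of 44 for YY1, and 3 of 4 and 47 of 58 for the receptors. Each group held both positive and negative differences.

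Against both controls a gene was called higher or lower only if it differed from each control in that direction, and its value is the smaller of the 2 differences. With fatty acid, 43 of 70 subunits were lower than both controls and 7 were higher (61.4% and 10%), where 39.7% of all genes were lower and 40.4% higher. The higher count moved with the scaling: the split was 18.6% higher and 54.3% lower after quantile normalization, where all genes gave 42.6% and 37.7%. No member reached 2-fold, against 2.65% of all genes, and 3 were lower by 1.5-fold, against 6.13% of all genes: Ndufv3, Ndufa2 and Atp5pd. The probe sets used for Ndufv3 and Atp5pd are numbered among genes of another chromosome. The other probe set of Ndufv3 was 0.07 below the nearer control. Complex IV had the highest share below both controls (12 of 14), followed by III (5 of 7), V (7 of 13), I (17 of 32) and II (2 of 4). Of the 7 assembly factors 5 were higher than both controls and 0 lower.

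With cholesterol the subunits leaned the other way by less. Of 70 subunits 31 were higher than both controls and 14 lower (44.3% and 20%), where 36.3% of all genes were higher and 33.6% lower. After centring each array on its median, 32.9% of subunits were higher and 25.7% lower, where all genes gave 26.5% and 43.7%. No member reached 2-fold, against 1.19% of all genes. Complex V (8 of 13 higher, 2 lower) and complex I (16 of 32 higher, 4 lower) carried the lean, whereas complex IV was even (5 and 5 of 14), complex III had 2 higher and 3 lower, and complex II had 0 in either direction. The lipid comparisons share their controls, so their counts are not independent of each other.

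Complex I, the NADH dehydrogenase, has catalytic core subunits that hold its flavin and iron-sulfur centres, and accessory subunits around them. Of the 6 core subunits measured (Ndufs1, Ndufs3, Ndufs7, Ndufs8, Ndufv1 and Ndufv2), 3 were higher with cholesterol than with fatty acid and 3 lower. Of the 26 accessory subunits 23 were higher and 3 lower (88.5% and 11.5%), with a median of 0.18. In this comparison 51.9% of all genes were higher and 48% lower. The core split was near that of all genes and rests on 6 genes.

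Ndufs8, a core iron-sulfur subunit (probe set 17639056), read 9.77 in high glucose, 9.87 in low glucose, 9.95 with cholesterol, 9.27 with fatty acid, 9.76 in LZ serum and 9.71 in OZ serum. The fatty acid library stood alone at the bottom and the other 5 lay within a narrow band. Against fatty acid, cholesterol was higher by 0.68, and fatty acid fell below both controls by 0.51. Ndufv1, the flavin-binding core subunit, differed by 0.32 in the same direction, while Ndufv2 was lower with cholesterol, at 11.78 against 11.90.

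Ndufa2, an accessory subunit (17725721), read 8.36 and 8.54 in the high and low glucose controls, 8.62 with cholesterol, 7.66 with fatty acid, 8.44 in LZ serum and 8.39 in OZ serum. The fatty acid library was again the only one apart. The difference between the lipids was 0.96, just under 2-fold, and fatty acid was 0.70 below the nearer control. Ndufa1, another accessory subunit, read 8.63, 8.42, 8.63, 7.98, 8.51 and 8.34 in the same order of libraries, so cholesterol equalled the high glucose control and fatty acid was lowest.

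Ndufv3, an accessory subunit near the flavin site, was the widest member and has 2 probe sets that disagree. Probe set 17684372, with the higher mean, read 10.05 in high glucose, 10.08 in low glucose, 10.60 with cholesterol, 9.32 with fatty acid, 10.06 in LZ serum and 10.01 in OZ serum. The other, 17754014, read 9.78, 9.72, 9.90, 9.65, 9.71 and 9.69. Both put cholesterol highest and fatty acid lowest, but the lipids differed by 1.29 in the first and 0.25 in the second. The second is numbered between Pde9a and Pknox1, neighbours of Ndufv3 in RefSeq, whereas the first is numbered between Tmem183a and Mgat4e, genes of another chromosome. Over all named probe sets 98% lay, by number, among genes of their own chromosome. The share was lower among the member probe sets, at 95 of 106 (89.6%). Of the rest, 4 had no majority chromosome among their neighbours. The other 7 lay among genes of another chromosome, the probe set used for Ndufb3 among them. With all probe sets numbered among another chromosome left out, 0 members reached 2-fold. What the first probe set measures was not tested.

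The other complex I subunits spread from Ndufb2 (0.43 higher with cholesterol than fatty acid) and Ndufb8 (0.43) to Ndufs4 (-0.10) and Ndufv2 (-0.12). Ndufb4 was the subunit outside Ndufv3 and Uqcr11 with the largest value for cholesterol against both controls (0.27): it read 11.50 and 11.53 in the high and low glucose controls, 11.79 with cholesterol, 11.44 with fatty acid, 11.61 in LZ serum and 11.50 in OZ serum. Others barely moved. Ndufb10 ranged over 0.13, Ndufs1 over 0.14, and Ndufa7, Ndufb9, Ndufs3 and Ndufs6 over 0.16 each.

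The assembly factors of complex I build the enzyme and are not part of it. Ndufaf4, which acts on an early intermediate, read 7.29 in high glucose, 7.53 in low glucose, 7.13 with cholesterol, 7.99 with fatty acid, 7.53 in LZ serum and 7.57 in OZ serum. Here fatty acid was highest and cholesterol lowest, the reverse of Ndufa2 or Ndufs8. Fatty acid exceeded both controls by 0.46, and cholesterol was 0.16 below both. Ndufaf6 read 7.98, 7.94, 7.70, 8.25, 7.88 and 8.02 in the same order, with the same libraries at the ends. Ndufaf1, a partner in the assembly of the membrane arm, read 9.17, 8.94, 8.91, 9.26, 9.11 and 9.12. Ndufaf7, a methyltransferase that modifies a core subunit, read 8.39, 8.43, 8.48, 8.65, 8.36 and 8.40, so fatty acid was highest but cholesterol was not lowest. The difference of cholesterol from fatty acid was -0.29 in Ndufaf5, -0.08 in Ndufaf3 and 0.04 in Ndufaf8.

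**Figure D5:**
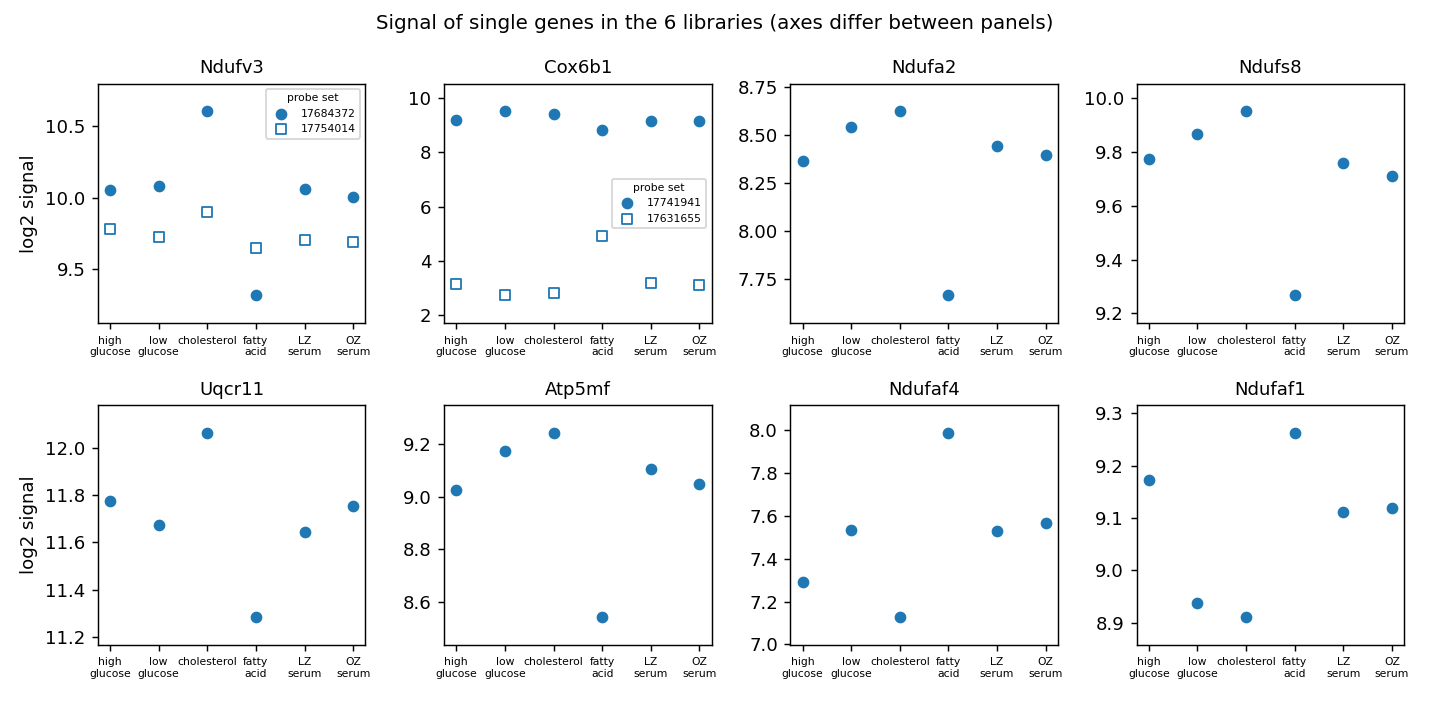
Log2 signal (vertical axes, which differ between panels) of 8 genes in the 6 libraries (horizontal axis), 1 array per point; both probe sets are drawn for Ndufv3 and Cox6b1. Fatty acid is lowest for Ndufa2 at 7.66 and highest for Ndufaf4 at 7.99.

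Complex II, succinate dehydrogenase, was nearly level. The flavoprotein Sdha read 10.33 in high glucose, 10.47 in low glucose, 10.42 with cholesterol, 10.27 with fatty acid, 10.41 in LZ serum and 10.25 in OZ serum. The iron-sulfur subunit Sdhb read 10.19, 10.37, 10.30, 10.36, 10.33 and 10.14. The membrane anchor Sdhc read 11.60, 11.36, 11.55, 11.40, 11.43 and 11.53, and its partner Sdhd read 9.81, 9.73, 9.79, 9.70, 9.73 and 9.74. No library was highest or lowest in all 4 subunits, and the range was 0.22 for Sdha, 0.23 for Sdhb, 0.24 for Sdhc and 0.11 for Sdhd, all under 0.25.

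Complex III, the cytochrome bc1 complex, was split. Uqcr11, a small subunit, read 11.77 in high glucose, 11.67 in low glucose, 12.06 with cholesterol, 11.28 with fatty acid, 11.65 in LZ serum and 11.75 in OZ serum. Cholesterol was 0.29 above both controls and fatty acid 0.39 below both, so the lipids differed by 0.78. Uqcrh, the hinge protein, also had cholesterol highest and fatty acid lowest, with smaller steps, at 12.10, 12.04, 12.25, 11.86, 12.05 and 12.11.

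Uqcrc2, a core protein, went against them: it read 11.56, 11.56, 11.35, 11.56, 11.60 and 11.65, with cholesterol alone at the bottom, 0.21 below both controls and the fatty acid library. Uqcrb read 7.27, 7.23, 7.07, 7.18, 7.37 and 7.69, with OZ serum highest. The Rieske iron-sulfur protein Uqcrfs1 and the core protein Uqcrc1 were highest in low glucose, by 0.37 and 0.32 over high glucose. Uqcrq read 11.42 with cholesterol and 11.32 with fatty acid, the lowest pair among its 6 values.

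Complex IV, cytochrome c oxidase, carries electrons to oxygen. Its median lipid difference of 0.28 was above the 0.23 of complex V, but without the signal filter it was 0.15 against 0.23, and with the mean of probe sets 0.22 against 0.23, so the order of these complexes depends on the processing. Cox8a, whose upstream sequence is printed above, read 12.01 in high glucose, 11.96 in low glucose, 12.20 with cholesterol, 11.70 with fatty acid, 11.97 in LZ serum and 12.02 in OZ serum. Cholesterol was above and fatty acid below the other 4, which lay close together. Cox7c had the same pattern, at 9.33, 9.28, 9.51, 9.09, 9.32 and 9.26. Cox5b, a regulatory subunit, read 9.52, 9.91, 9.75, 9.34, 9.57 and 9.58, with fatty acid lowest and low glucose highest.

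Some subunits of complex IV come in pairs of alternative forms. The common form Cox4i1 read 11.98, 12.16, 12.14, 11.79, 12.07 and 12.00 in high glucose, low glucose, cholesterol, fatty acid, LZ serum and OZ serum. Its alternative Cox4i2, known for its response to low oxygen, read 7.90, 7.90, 8.07, 7.45, 7.81 and 7.61. Fatty acid was lowest in both, and the lipids differed by 0.35 in Cox4i1 and 0.62 in Cox4i2. Of 13 other genes known to respond to low oxygen, 10 were higher with cholesterol than with fatty acid and 3 were lower. All genes split into 51.9% higher and 48% lower in this comparison. Those higher were led by Car9 (1.80) and Egln3 (1.49), and those lower were Adm (-0.43), Pgk1 (-0.13) and P4ha1 (-0.11). Against both controls 7 of the 13 were higher and 3 lower with cholesterol, and 5 higher and 4 lower with fatty acid. Car9 was below both controls with either lipid, at -0.51 with cholesterol and -2.31 with fatty acid. Egln3 was above both controls with cholesterol (0.68), but high and low glucose differed by 1.31. The part of oxygen in these values was not tested.

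Cox6a1, the common form, read 12.08, 12.32, 12.34, 12.00, 12.20 and 12.08, with fatty acid lowest. Cox6a2, the heart and muscle form, read 9.17, 9.16, 8.85, 8.63, 8.67 and 8.70. Both controls lay above the other 4 libraries for Cox6a2: it was 0.31 lower with cholesterol, 0.53 lower with fatty acid and 0.46 lower in the serum libraries, each against the nearer control. Those 3 values share the control arrays. Cox6a2 was the only subunit of the 70 whose serum value passed 0.2 in size.

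Cox6b1 was read by a probe set at 9.20, 9.52, 9.41, 8.83, 9.17 and 9.18, with fatty acid lowest, but that probe set is numbered among genes of another chromosome. Its other probe set, at its own place, read 3.14, 2.72, 2.80, 4.90, 3.18 and 3.11, below the filter and with fatty acid highest. The alternative Cox6b2 lay below the filter at 6.13 to 6.40. Cox8b, the muscle form beside Cox8a, was also below it, at 6.07 to 6.40. For the pair Cox7a1 and Cox7a2 no probe set with a single symbol was used.

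Ndufa4, now counted as a complex IV subunit, read 12.21, 12.08, 12.06, 11.89, 12.17 and 12.24, with fatty acid lowest. Its relative Ndufa4l2 read 7.86, 7.97, 7.79, 7.81, 7.75 and 7.69, within 0.28. Cox5a was higher than both controls with cholesterol (0.16) and with fatty acid (0.18), although the probe set used is numbered among another chromosome's genes. Another probe set of Cox5a, 17844516, lies among its own chromosome's genes and read 12.27, 12.30, 12.46, 12.49, 12.28 and 12.34, with the same libraries on top. Cox7a2l, which bridges complexes III and IV, was lower than both controls with either lipid, by 0.25 with cholesterol and 0.21 with fatty acid, as in sign were Cox6a2, Cox6c, Ndufa4 and Ndufa4l2. Cox6c and Cox7b differed by 0.11 and 0.02 between the lipids.

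Complex V makes ATP in its F1 head, driven by the Fo part and a stalk in and at the membrane. The lipids differed by a median of 0.12 over the 3 F1 subunits measured and of 0.36 over the 10 Fo and stalk subunits. The F1 catalytic subunit Atp5f1b read 12.55 in high glucose, 12.64 in low glucose, 12.65 with cholesterol, 12.57 with fatty acid, 12.58 in LZ serum and 12.63 in OZ serum, a range of 0.10. The F1 subunits Atp5f1a and Atp5f1d ranged over 0.26 and 0.19.

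Among the membrane subunits, Atp5mf read 9.03, 9.17, 9.24, 8.54, 9.11 and 9.05 in the same order, with only fatty acid apart, 0.48 below the nearer control. Atp5me read 8.00, 8.13, 8.23, 7.66, 8.14 and 7.75, so that OZ serum was low beside fatty acid. The stalk subunit Atp5pf read 10.01, 10.01, 10.12, 9.65, 9.95 and 10.03. These are the genes Atp5me and Atp5pf whose upstream sequences are printed above, and both had fatty acid lowest and cholesterol highest.

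The stalk subunit Atp5pd read 9.13, 9.34, 9.01, 8.46, 8.94 and 8.81, with every other library below both controls and fatty acid lowest, 0.66 below the nearer control. Its probe set is numbered among another chromosome's genes. Atp5pb, also in the stalk, read 10.94, 10.94, 10.79, 11.04, 10.95 and 10.89, the one subunit of complex V with cholesterol lowest and fatty acid highest. Atp5mc1, which encodes the proton-carrying c subunit, read 10.61, 10.96, 11.12, 10.66, 10.85 and 10.93. Its sister gene Atp5mc3 read 11.43, 11.76, 11.67, 11.68, 11.56 and 11.49, and both had high glucose lowest. Atp5mg, Atp5mk and Atp5po differed by 0.23, 0.11 and 0.26 between the lipids. The inhibitor Atp5if1, which blocks the enzyme when it would run backwards, read 9.42, 9.60, 9.80, 9.34, 9.54 and 9.44, higher with cholesterol by 0.46 than with fatty acid and so on the side of the subunits.

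The controls and the serum libraries were closer to each other. High glucose was higher than low glucose in 27 of 70 subunits and lower in 43 (38.6% and 61.4%), where all genes gave 48.9% and 51.1%. No member reached 2-fold, against 0.355% of all genes. Complex V leaned most, with 1 of 13 higher and 12 lower and a median of -0.13, followed by IV with 4 of 14 higher and 10 lower. Complex I was even, with 17 higher and 15 lower. The extremes were Ndufa6 at -0.45 (9.58 against 10.04) and Ndufb11 at 0.35 (11.41 against 11.06).

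Between the serum libraries, OZ was higher than LZ in 36 of 70 subunits and lower in 34 (51.4% and 48.6%), where all genes gave 41.9% higher and 58.1% lower. After median centring the subunits gave 35.7% and 64.3%, and all genes 31.8% and 68.2%, so neither side had more of the subunits under every scaling. No member reached 2-fold, against 0.026% of all genes. Complex I split into 16 and 16, III into 5 higher and 2 lower, IV into 8 and 6, and V into 5 and 8. The largest member values were -0.39 for Atp5me and 0.44 for the copy Ndufb4l4, with 0.32 for Uqcrb the largest among the subunits that were higher.

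Both serum libraries were higher than both controls in 2 of 70 subunits and lower in 17 (2.86% and 24.3%), where 8.83% of all genes were higher and 19.7% lower. The 2 higher subunits were Uqcrb (0.10) and Uqcrc2 (0.04), both of complex III. The members at 2-fold were 0, as were those among all genes (0%), and at 1.5-fold 1 gene of the 11540 was higher and 1 lower. Complex I had 8 of 32 lower, IV 5 of 14, and II 0 of 4.

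Among the 8 measured copies and pseudogenes, Atp5hl1 had the widest lipid difference, reading 7.28, 7.02, 7.60, 6.83, 7.06 and 6.94. It was higher with cholesterol by 0.77. Ndufs6-ps1 differed by 0.39 and the remaining 6 by -0.08 to 0.23. A copy can share probes with its parent gene, and signal of the parent in these probe sets cannot be told apart from that of the copy.

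Genes that serve the chain without being in it did not all take the side of the subunits. Of 30 other assembly factors 12 were higher with cholesterol than with fatty acid and 18 lower, the copper chaperone Sco1 by -1.01, Cox18, which inserts a complex IV subunit into the membrane, by -0.80, and Ttc19, which acts on complex III, by -0.78. Sco1 read 9.59, 9.06, 8.77, 9.78, 9.37 and 9.48. Of 16 measured regulators of mitochondrial gene expression 4 were higher and 12 lower, led by Myc (-1.25), the mitochondrial transcription factor Tfb2m (-0.66) and the helicase Twnk (-0.34). All genes split into 51.9% higher and 48% lower in this comparison.

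The regulators whose motif letters were searched stayed within a 2-fold range. Nrf1 read 8.63, 8.69, 8.85, 9.00, 8.58 and 8.60, Gabpa 8.94, 8.91, 8.73, 8.76, 8.85 and 8.84, and Esrra 8.34, 8.43, 8.41, 8.45, 8.35 and 8.25. Yy1 read 10.88, 10.88, 11.08, 11.07, 10.84 and 10.78, higher with both lipids. The coactivator Ppargc1a, a known driver of respiratory genes in muscle, was below the filter. Of 19 electron carriers and feeder enzymes 12 were higher with cholesterol than with fatty acid and 7 lower, the ubiquinone-binding Coq10b by -0.88. Of 15 tricarboxylic acid cycle genes 8 were higher and 7 lower, a split near that of all genes. Against both controls 3 of the 15 were higher and 10 lower with cholesterol, and 3 higher and 9 lower with fatty acid, with Idh2 at -0.87 in the latter. Of all genes 36.3% were higher and 33.6% lower with cholesterol, and 40.4% higher and 39.7% lower with fatty acid.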

How the data were processed

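Total RNA of 6 cultures was read on Affymetrix Rat Gene 2.0 ST arrays. The authors deposited 1 linear intensity per probe set and array; how it was summarised and normalized is not given in the sources used here, and a change in total RNA per cell was not measurable. The log2 of the intensity was taken with no offset. Gene names come from the platform annotation, which gives 1 symbol for 18511, several for 575 and none for 17599, and only the first were used. A RefSeq table of GRCr8 gave gene order and promoters; no coordinates of probe sets were used. The genes, lists and alternatives were chosen with earlier results of these data known. Every member could be named, with full values for isoform pairs, complex II, Atp5if1 and the largest differences in each comparison and complex; others with values were chosen after these were seen. Counting was checked on simulated data with known differences. Alternatives were quantile normalization, median centring, cyclic loess (limma 3.58.1, R 4.3.3), an offset of 32, no filter or a stricter one, the mean of probe sets, 1.5-fold and single controls. Python 3.11.15, numpy 2.4.6, pandas 2.3.3 and matplotlib 3.10.9 were used.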

Additional observations from a re-analysis of the deposited data

How the results depend on the processing

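No paired analysis was possible because each group has 1 array. Of the recomputed counts of subunits by direction and of members at the fold threshold, 153 stayed within 1.5 times and 15 moved. Among the other recomputed values, medians by complex and counts of assembly factors, 615 stayed and 21 moved, 3 of the latter being medians, of 528 in all. Medians were judged by a fixed log2 shift larger than many of them, so some changed sign and still counted as stayed. The complex I median of OZ serum minus LZ serum, for example, ran from -0.036 to 0.012. With the high or the low glucose control alone, subunits lower with cholesterol numbered 24 and 29 in place of 14. Those higher with fatty acid numbered 20 and 14 in place of 7, and 13 under both quantile normalization and cyclic loess. Subunits higher in both serum libraries than the high or the low glucose control alone numbered 17 and 14 in place of 2 (1 with the stricter filter), and those lower 31 and 39 in place of 17. A single control is a weaker demand by construction. Members at the fold threshold between the lipids numbered 0 instead of 1 with the mean of probe sets, or without probe sets numbered among another chromosome (an alternative added after seeing the data), and 9 at 1.5-fold, where fatty acid against both controls had 3 instead of 0. Median centring put the median of all genes at -0.10 for OZ serum against low glucose, and other scalings at less. Low signals, as in Cox6b1's second probe set, limit what the arrays resolve.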
